A study of Homo sapiens with 2 samples.

Results

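The EGR and KLF early zinc finger factors were examined here as 9 listed genes (EGR1, EGR2, EGR3, KLF2, KLF4, KLF5, KLF6, KLF9 and KLF10). Members were taken by symbol, with every probe set that the platform annotation gives them. This found 8 of the 9 genes, with 9 probe sets in all, among 14884 named genes and 53617 probe sets. EGR2 is unnamed on this platform table and was not analysed here. The cells were A549, an established human lung adenocarcinoma line, kept for 4 h without stretch (static) or with stretch (stretch), with no drug, gene transfer or further treatment named for either. The title of the stretch sample spells the line as A594, while its source name gives A549, which was followed here. Each condition had 1 array of RMA signals, which are on a log2 scale. No value below has a replicate, no test across samples exists, and the number of arrays limits the precision. The sources used here do not give the strain applied, the stretching device or how many cultures each RNA came from.

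EGR and KLF proteins are transcription factors that bind DNA through a short row of C2H2 zinc fingers. EGR proteins bind GC-rich sites, and KLF proteins bind GC boxes and related CACCC sequences. EGR genes are immediate early genes: growth factors and mechanical force switch them on through ERK kinases, serum response factor (SRF) and its ETS-family partners, without new protein synthesis, and their transcripts decay quickly. Several KLF genes also respond early. KLF2 and KLF4 are known for their induction by fluid flow through ERK5 and MEF2 factors in endothelium, KLF9 for induction by glucocorticoids and KLF10 for induction by TGF-β.

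Promoter windows are shown for the member with the largest difference between arrays (EGR1), a member that passed 1.5-fold under some scalings only (KLF2), and a KLF gene with signals nearly equal on both arrays (KLF4). Each holds the 250 bases before the annotated start in RefSeq, build GRCh38.p14, read 5′ to 3′ on the gene's strand. EGR1 lies at chr5:138465229-138465478 on the plus strand, and capitals mark CArG boxes, the SRF motif. KLF2 lies at chr19:16324576-16324825 on the plus strand, and capitals mark a MEF2 site, a motif added after the sequences were seen. KLF4 lies at chr9:107489770-107490019 on the minus strand, and capitals mark matches to the GC box GGGGCGGGG on either strand.
EGR1: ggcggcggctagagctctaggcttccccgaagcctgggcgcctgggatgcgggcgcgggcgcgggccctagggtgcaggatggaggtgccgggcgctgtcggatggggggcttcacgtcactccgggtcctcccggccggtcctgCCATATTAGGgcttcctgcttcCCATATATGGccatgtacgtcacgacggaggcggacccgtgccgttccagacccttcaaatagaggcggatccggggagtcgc
KLF2: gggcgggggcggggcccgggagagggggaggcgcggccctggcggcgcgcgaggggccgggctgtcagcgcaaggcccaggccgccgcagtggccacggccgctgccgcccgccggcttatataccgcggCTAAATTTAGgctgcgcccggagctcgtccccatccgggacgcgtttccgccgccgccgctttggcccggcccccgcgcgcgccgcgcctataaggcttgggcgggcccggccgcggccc
KLF4: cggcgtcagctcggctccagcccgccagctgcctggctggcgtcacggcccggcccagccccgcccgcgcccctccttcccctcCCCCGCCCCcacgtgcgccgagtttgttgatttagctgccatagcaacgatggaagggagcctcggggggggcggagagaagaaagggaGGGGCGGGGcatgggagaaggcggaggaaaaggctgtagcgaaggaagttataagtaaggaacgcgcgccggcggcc

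The EGR1 window held CArG boxes at a pair of places, CCATATTAGG from -105 to -96 and CCATATATGG from -83 to -74 relative to the start. Of 35116 RefSeq promoter windows of this length, 407 (1.16%) held a CArG box and 11 (0.0313%) held 2 or more. RefSeq windows were searched for 7 members, 10 windows in all, since EGR2 has 3 annotated starts and KLF5 has 2. No window of EGR3 or KLF10 was searched, so statements on member windows leave these genes out. Besides EGR1, a CArG box (CCATATATGG) occurred in 1 of the EGR2 windows. None of the KLF windows searched held one. The EGR site GCGNGGGCG, searched on both strands, occurred in the windows of EGR1, KLF2, KLF4 and KLF6, and in 8.42% of all windows. The GC box occurred in those of EGR2, KLF2, KLF4 and KLF5, and in 15.1% of all windows; at KLF2 it overlaps the EGR site. The MEF2 site of KLF2 (CTAAATTTAG, -120 to -111) was the only one among the member windows searched, against 0.515% of all windows. Of the KLF5 windows, 1 held TATAAA (-194 to -189), which 10.7% of all windows hold. The same window held AGAACA on the other strand (-27 to -22), one side of the glucocorticoid receptor's palindromic motif (12.4%). The other KLF5 window held neither. No member window searched held the exact string CCGGAAGT (ETS), CCACACCC (CACCC-type), TGACGTCA (cAMP response element) or GTCTAGAC (SMAD palindrome). These strings occur in 3.42%, 2.97%, 1.65% and 0.182% of all windows, respectively. Shorter or variant forms of these strings were not searched, so their absence from the member windows was not tested. The EGR1 window shown holds TTCC, the other strand of the GGAA in CCGGAAGT, between its CArG boxes. It also holds CGTCA, a part of TGACGTCA. All motif results given here are letter matches and not measured binding.

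Before the members are described, the scale of the comparison is needed. Of the 14884 named genes, 10981 passed a level filter (the higher of both signals at or above 2.52, the median of all signals). Across these genes the median difference, stretch minus static throughout, was 0.20, and across all 14884 it was 0.06. Over all probe sets the array medians stood the other way, at 2.57 static and 2.47 stretch. A difference of 1.5-fold or more upward was seen in 27.7% of the genes and downward in 8.9%. At 2-fold the shares were 12.3% and 2.5%. Genes higher made up 75.7% of those past 1.5-fold as deposited. That share was 53.9% after quantile normalization, 60.3% after a loess on level, 87.3% with the filter at the upper quartile of signals, and 21.7% after centring on 8 reference genes. The median difference of all genes was -0.01, 0.04, 0.41 and -0.34 under these, and 0.30 with each array's median subtracted. Signals up to 4.41, the 95th percentile of 15 genes of unrelated tissues, are called within background here. Among those 15 genes, 5 differed by at least 1.5-fold and the SD of the difference was 0.42.

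Epithelial identity, though not the line itself, was checked by marker lists. Of 11 measured epithelial and carcinoma markers, 7 were above background on each array, among them KRT18 (10.29 and 11.00) and EPCAM (5.30 and 4.71). The 7 also include VIM, TXNRD1 and GPX2, so the count does not speak for epithelial genes alone. The keratin gene KRT19 (3.77 and 3.78) was within background on both arrays. The lung lineage genes NKX2-1, SFTPB and SFTPC were within background on both. All 3 fibroblast and all 8 endothelial markers measured were within background on both arrays. Of 5 leukocyte markers, CD68, a lysosomal protein of many cell types, and CD14 were above it, with CD68 at 7.51 and 8.58 and CD14 at 5.13 and 5.53.

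Among the members, EGR1 alone passed 1.5-fold as deposited. EGR1 was at 8.69 on the static array and 6.74 on the stretch array, so its signal under stretch was 25.9% of the static one. The log2 difference was -1.95, a 3.86-fold lower signal. Only 0.137% of the 10981 genes had a lower difference, which put EGR1 at rank 16 from the bottom. Its dimmer probe set was lower on the stretch array as well, at 4.41 against 3.70 (-0.71). The static signal of this probe set lies at the background bound, and its stretch signal is within background. With both probe sets averaged the difference was -1.33. EGR1 was lower in each scaling tried, between -2.49 after centring on reference genes and -1.85 with array medians subtracted. Relative to the median gene it stood at -2.15. In RNA from a whole culture, a lower level per cell and fewer cells with the transcript cannot be told apart.

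EGR3, another early-induced activator of the family, was at 3.59 on the static array and 3.11 on the stretch array. Both signals are within background, and the difference of -0.48 does not reach 1.5-fold. After centring on reference genes it was -1.02, while the other scalings gave -0.55 to -0.38. EGR4, the fourth EGR gene and not among the listed members, was within background at 2.75 and 2.50.

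**Figure D1:**
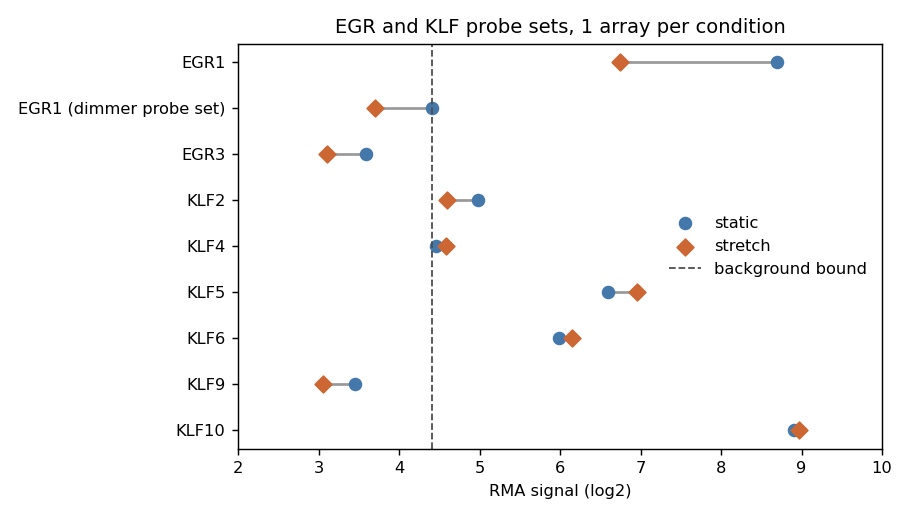
RMA signal (log2, horizontal axis) of each EGR and KLF probe set on the static array (circles) and the stretch array (diamonds), joined by a line; 1 array per condition, so there are no error bars. The dashed line is the background bound of 4.41; EGR1 spans 8.69 to 6.74, while the KLF symbols lie close together.

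The 6 KLF members differed little between the arrays, from -0.40 to 0.36, and none reached 1.5-fold in either direction as deposited. KLF10, a TGF-β-inducible repressor, was at 8.91 and 8.97 (0.06). KLF5, an activator of proliferating epithelium, was at 6.59 and 6.95 (0.36), the highest difference among the members. KLF6, a widely expressed factor, was at 5.99 and 6.15 (0.16). KLF4, a factor of epithelial differentiation and cell cycle arrest, was at 4.46 and 4.58 (0.12), just above the background bound on both arrays. These 4 genes were slightly higher as deposited, and KLF4, KLF6 and KLF10 were lower after quantile normalization, loess or centring on reference genes. KLF5 was lower after quantile normalization and centring on reference genes, at -0.01 and -0.18.

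KLF2 and KLF9 were lower on the stretch array in each scaling tried. KLF2, the flow-induced factor of endothelium, was at 4.98 and 4.59 (-0.39), above background on both arrays. It passed 1.5-fold in 3 scalings, with -0.77 after quantile normalization, -0.69 after loess and -0.93 after centring on reference genes. KLF9 was at 3.45 and 3.05 (-0.40), within background on both arrays like EGR3, and passed 1.5-fold at -0.94 after centring on reference genes. Whether KLF2 reached 1.5-fold thus depended on how the arrays were set to each other, which these files do not settle.

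**Figure D2:**
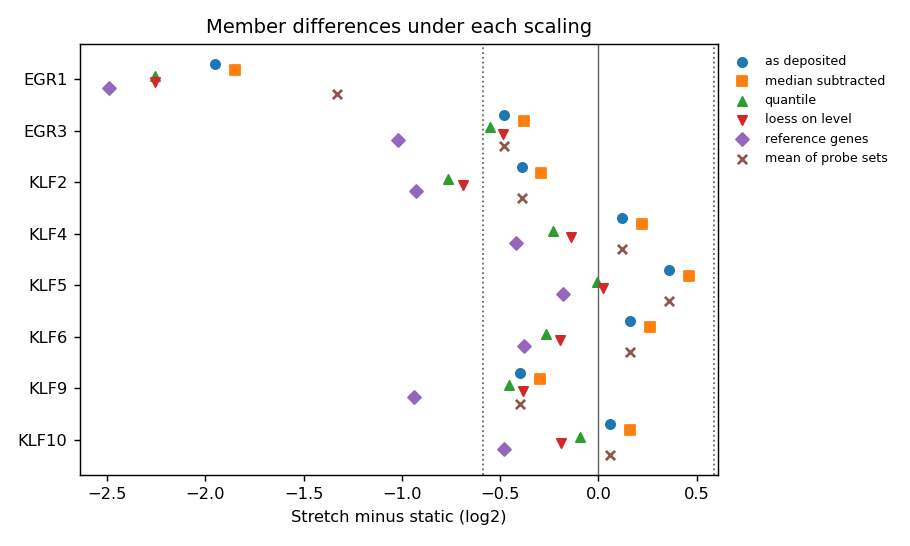
Log2 difference, stretch minus static (horizontal axis), of the 8 measured members as deposited, under 4 other scalings and with all probe sets averaged; dotted lines mark 1.5-fold. EGR1 lies left of the lower line in all 6 settings, and KLF2 crosses it in 3.

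Counted together, 0 of the 8 measured members reached 1.5-fold upward, where 27.7% of all genes did. 1 of 8, EGR1, reached 1.5-fold and also 2-fold downward. This is 12.5% of the members against 8.9% of all genes at 1.5-fold, a share near the background, and against 2.5% at 2-fold. The members' median difference was -0.165, and the 7 genes other than KLF5 lay below the median gene past the filter. Against the median without a level filter (0.06), 4 of the 8 lay below, and after loess all 8 did. All 8 passed the level filter. KLF5 exceeded 59.9% of all genes in difference, and KLF6, KLF4 and KLF10 exceeded 46.6%, 44.0% and 39.8%. EGR3, KLF9 and KLF2 exceeded 11.8%, 14.6% and 15.03%. Difference moved with level in these data, so the level of a member matters to this order: the loess curve stood at 0.25 to 0.35 for the 6 members above background and between -0.02 and 0.01 for EGR3 and KLF9.

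**Figure D3:**
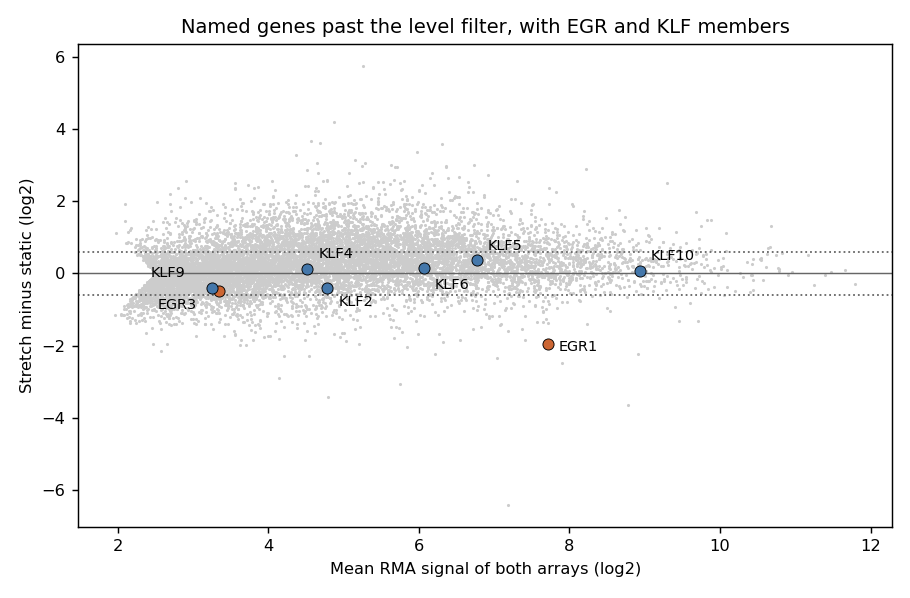
Log2 difference, stretch minus static (vertical axis), against mean signal of both arrays (log2, horizontal axis) for the 10981 named genes past the level filter (grey), with EGR members in orange and KLF members in blue; dotted lines mark 1.5-fold. EGR1 lies at -1.95, under nearly all genes of its level, and the other members lie inside the grey cloud.

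By distance over the 2 arrays (Euclidean, log2 values), the genes with values most like EGR1 were NTS, which encodes neurotensin (8.39 and 7.03, distance 0.42), the small Cajal body RNA SCARNA16 (8.33 and 6.48, 0.44) and the adaptor GRB14 (8.31 and 6.98, 0.45). For KLF5, the member with the highest difference, TBL1XR1 and USP16 lay at a distance of 0.022 and ACACA at 0.032. Such nearness compares signals of different probe sets over 2 arrays, depends on how many genes share a level, and says nothing of behaviour elsewhere.

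The remaining EGR, KLF and SP genes, which share the zinc finger type, were 22, and 17 of them passed the level filter. At 1.5-fold 3 were higher and 3 lower, 17.6% each, against 27.7% and 8.9% of all genes. At 2-fold 0 were in either direction. Their median was 0.12. KLF7 went from 6.64 to 7.50 (0.86), above background on both arrays. WT1, the Wilms tumour factor whose fingers resemble those of EGR1, read 3.87 and 4.74 (0.87, static signal within background). SP2 read 4.42 and 5.23 (0.81), its static signal at the background bound. KLF14 was lower at -0.71, within background on both arrays. Chosen after their values were seen, SP5 (3.40 and 2.75, -0.65, within background on both arrays) and SP4 (5.67 and 5.03, -0.64) were the other two lower ones. SP1, a ubiquitous GC-box factor, was at 6.66 and 7.07 (0.41), and KLF3 at 6.64 and 6.23 (-0.41), both chosen likewise. At 1.5-fold, the count of higher genes was 0 after quantile normalization or centring on reference genes and 1 after loess. The count of lower genes was 5 after quantile normalization, 6 after centring on reference genes and 1 with array medians subtracted.

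Co-repressors and cofactors of these factors had differences from 0.22 to 1.5. NAB1 and NAB2 bind EGR proteins and repress their activity, and NAB2 is itself an EGR1 target. NAB1 was at 4.45 on the static and 5.67 on the stretch array (1.22), and NAB2 at 3.46 and 4.45 (0.99), the static signal within background. SIN3B, a scaffold of histone deacetylase complexes, was at 3.53 and 5.03 (a difference of 1.5, static signal within background) and the deacetylase HDAC1 at 6.30 and 7.10 (0.80). At 1.5-fold 4 of 12 were higher (33.3%, against 27.7% of all genes) and 0 lower (against 8.9%). The higher share is near that of all genes, and the list's median was 0.40. After centring on reference genes, 2 of the 12 were higher.

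Among upstream factors and kinases, 13 of 25 were measured and 12 passed the filter. At 1.5-fold 7 of these were higher (58.3%, against 27.7% of all genes) and 0 lower (against 8.9%), and the median was 0.615. SRF, which binds CArG boxes, was at 6.13 on the static and 6.96 on the stretch array (0.83), while EGR1 was the lower. MEF2D was at 6.74 and 7.54 (0.80). The MAP kinase kinases MAP2K3 (4.59 and 6.41, 1.82) and MAP2K2 (2.27 and 3.58, 1.31, within background on both arrays and past the filter on the stretch array alone) had the largest differences. Chosen after their values were seen, MAPK7, which encodes ERK5, was at 4.65 and 4.21 (-0.44), and MAPK3, which encodes ERK1, at 5.98 and 5.65 (-0.33). After quantile normalization, loess or centring on reference genes, 2 of the 12 were higher, against 2, 2 and 4 lower, respectively. SRF and MEF2D were not among the 2 higher genes under any of these scalings.

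Of 22 measured immediate early genes outside the members, 13 were higher at 1.5-fold and 2 lower, and the median was 0.83. These counts are 59.1% and 9.1%, against 27.7% and 8.9% of all genes. FOS, the AP-1 subunit regulated like EGR1 through SRF, was the lower at 7.33 and 5.11 (-2.22). FOSB, chosen after its values were seen, was the other, at 7.66 and 6.64 (-1.02). With both probe sets averaged, FOS stood at -1.87 and FOSB at -0.61. On the higher side, CCN2 (3.59) stood at 2.28 with both of its probe sets averaged and DUSP5 (2.25) at 0.95. MCL1 was at 5.45 and 7.56. FOS, FOSB and EGR1 were thus lower on the array where these 13 genes were higher. The counts became 12 higher and 4 lower after quantile normalization, 11 and 4 after loess, and 9 and 6 after centring on reference genes. Of the factors that destroy early transcripts, 5 of 13 were measured: KHSRP stood at 0.79, ZC3H12A at 0.56, DCP2 at 0.30 and RC3H1 at -0.21. KHSRP was the 1 past 1.5-fold, 20.0% of those measured against 27.7% of all genes. It was not past 1.5-fold after quantile normalization, loess or centring on reference genes.

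Of 14 known EGR1 targets past the filter, 7 were higher at 1.5-fold and 2 lower, beside an EGR1 signal that was the lower on this array. Both shares lie above those of all genes, 27.7% higher and 8.9% lower. Whether the EGR1 level bears on these genes was not tested. Their median was 0.655, and the list was chosen with earlier results known. The phosphatase gene DUSP4 was at 5.43 and 7.46 (2.03), PTGES, a prostaglandin E synthase, at 5.21 and 6.81 (1.60), and ICAM1 at 2.92 and 4.64 (1.72). The ERK inhibitor gene SPRY4 was at 3.01 and 4.76 (1.75). ICAM1 and SPRY4 had static signals within background. The lower ones, chosen after their values were seen, were GDF15 (8.19 and 7.12, -1.07), a stress-induced cytokine, and ACE (-0.65, within background on both arrays). After centring on reference genes, 4 of the 14 were higher at 1.5-fold.

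Of 17 known KLF2 or KLF4 targets past the filter, 7 were higher at 1.5-fold and 5 lower, around a median of 0.00. These counts are 41.2% and 29.4%, against 27.7% and 8.9% of all genes. The 5 lower genes were all within background on both arrays, and 4 of them passed the filter on the static array alone. Higher were TFPI2, a protease inhibitor (8.83 and 10.53, 1.70), and the cyclin gene CCND1 (6.22 and 7.60, 1.38). The cornified envelope genes SPRR1A (-1.41) and SPRR2A (-1.20) were among the lower. A level filter at the upper quartile kept 0 of the 5 lower genes. Of 12 KLF5 or KLF6 targets, 5 were higher at 1.5-fold and 1 lower (41.7% and 8.3%), and the median was 0.50. The lower one, TXNIP (2.62 and 2.02, -0.60, chosen after its values were seen), is within background on both arrays and passed the filter on the static array alone. It did not pass 1.5-fold with its probe sets averaged (-0.355), with array medians subtracted or after loess. ATF3 was at 3.94 and 5.55 (1.61, static signal within background), IGF1R at 7.30 and 8.37 (1.07) and EGFR at 7.74 and 8.71 (0.97). After centring on reference genes, 2 of the first list and 2 of the second were higher at 1.5-fold, and 8 and 3 lower.

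Genes that share an inducer with KLF9 or KLF10 are given beside these factors. Of 11 glucocorticoid-induced genes, 6 were higher at 1.5-fold and 1 lower (54.5% and 9.1%, against 27.7% and 8.9% of all genes). The lower one, TFCP2L1 (3.53 and 2.94, -0.59, chosen after its values were seen), is within background on both arrays and did not pass 1.5-fold with array medians subtracted or after loess. Their median was 0.70, while KLF9 stood at -0.40. ANGPTL4 (4.84 and 6.77, 1.93), IGFBP1 (5.57 and 7.49, 1.92), ERRFI1 (8.36 and 9.30, 0.94) and DUSP1 (8.24 and 9.04, 0.80) had the largest differences. The 6 became 3 after loess and 2 after centring on reference genes. Chosen after its values were seen, FKBP5, a widely used glucocorticoid target, was at 4.58 and 4.34 (-0.24). Of 10 TGF-β-induced genes, 7 were higher at 1.5-fold and 1 lower, where 27.7% of all genes were higher and 8.9% lower. The lower share is thus near that of all genes, and the higher share is above it. The lower one, LEFTY2 (2.66 and 1.92, -0.74, chosen likewise), is within background on both arrays and passed the filter on the static array alone. The lower count was 2 after quantile normalization or loess, 3 after centring on reference genes and 0 under the upper-quartile filter. Their median was 1.04, while KLF10 stood at 0.06. Besides CCN2, these were led by the ubiquitin ligase gene SMURF1 (5.88 and 7.66, 1.78) and the inhibitory SMAD6 (4.17 and 5.60, 1.43) and SMAD7 (2.99 and 4.34, 1.35). The static signal of SMAD6 and both of SMAD7 were within background. Centring on reference genes left 4 of the 7. Some genes belong to more than 1 of these lists, so the counts are not independent of each other.

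**Figure D4:**
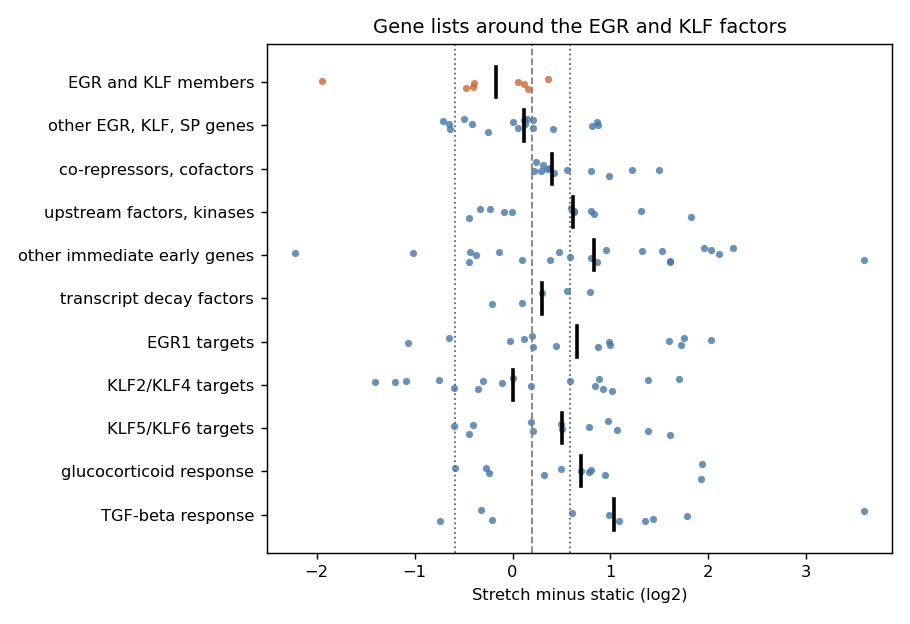
Log2 difference, stretch minus static (horizontal axis), of each gene past the level filter in the members' list (orange) and 10 lists around it (blue), spread vertically at random within a row; black bars are medians, the dashed line is the median of all genes (0.20) and dotted lines mark 1.5-fold. The members' median of -0.165 is the lowest, and EGR1 and FOS lie farthest left.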

How the data were processed

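The authors deposited log2 values, RMA signals per the submitters' processing notes, for 1 static and 1 stretch array of A549 total RNA. The sources used here do not name the software, its version or the chip definition. The columns' sorted values differ by up to 0.45, so the scaling between arrays is unknown. RMA gives no detection calls and compresses dim signals, so folds of dim genes can be too small.

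Probe sets were named through the platform annotation, 16098 with 1 gene symbol, 0 with several and 37519 unnamed. All identifiers matched the RefSeq gene table of GRCh38.p14. The probe set with the highest mean stood for its gene. The log2 difference is stretch minus static, counted at 1.5-fold (0.585) and 2-fold. Loess used a span of 0.3. Named genes are the members, up to 4 genes per list with the largest differences, and the 3 nearest to the lowest and highest member. Others, EGR4 and the EPCAM, KRT19, VIM, GPX2, NKX2-1, SFTPB and SFTPC markers among them, were chosen after their values were seen. Members and lists were chosen with earlier results of these data known. The planned comparison of zinc finger protein sequences was not made. Code was tested on simulated data. Python 3.11.15, numpy 2.4.6, pandas 2.3.3, statsmodels 0.14.6 and matplotlib 3.10.9 were used.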

Additional observations from a re-analysis of the deposited data

How the results depend on the processing

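EGR1 kept its direction and its side of 1.5-fold under the 5 alternatives tried, from -2.49 to -1.33. The count of members higher at 1.5-fold was 0 under each of 8 alternatives. The count lower went from 1 to 2 after quantile normalization and after loess (with KLF2), and to 4 after centring on reference genes (with EGR3, KLF2 and KLF9). Centring on reference genes lowers each difference by 0.54, which moved the members' median to -0.705. The shift is the median of 8 measured reference genes of 18 listed. Their differences ran from -0.22 to 1.72, with 3 past 1.5-fold upward, so these genes did not share 1 shift. Over all genes, those higher at 1.5-fold numbered 3042 as deposited, 1809 after quantile normalization, 1000 after centring on reference genes and 1349 at 2-fold. Those lower numbered 977 as deposited, and 1548, 3614 and 275 in the same order, with 373 when the level filter was at the upper quartile. Of 160 recomputed list counts, 102 were within 1.5 times the deposited one, 42 were smaller and 16 larger. EGR3 and KLF9 do not pass the upper-quartile filter. Signal over background limits both genes and the dimmer EGR1 probe set. No paired analysis was possible because each condition has 1 array.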
